A study of Mus musculus with 6 samples.

Results

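The genes described here are those of the tricarboxylic acid (TCA) cycle and of the step that feeds it, the pyruvate dehydrogenase complex with its kinases and phosphatases, together with the mitochondrial pyruvate carrier and enzymes of the malate and aspartate shuttles. The 33 genes were listed by symbol, with earlier results of these data known, and all 33 were found among the 54532 genes with an Ensembl identifier. Liver RNA was sequenced from wild-type male C57BL/6J mice that entered at 8 weeks of age and were fed a high-fat diet (HFD) for 4 weeks and then for another 4 weeks. The HFD group (replicates 1 to 3) received this diet alone, and the HFD+Allantoin-H group (replicates 4 to 6) also received allantoin, the oxidation product of uric acid, at 0.3 mg/mL in the drinking water during the second period. The labels give this and a lower dose without tying either to a library, so the dose rests on the study's name for the group. Both groups were on the high-fat diet, and no chow-fed library was analysed here. The labels do not state whether each library came from a separate mouse. The p-values set the group difference against the spread between libraries of a group, and that spread may in part be technical.

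In mitochondria, pyruvate enters through a carrier made of MPC1 and MPC2 and is turned into acetyl-CoA by the pyruvate dehydrogenase complex, built from E1 (PDHA1 and PDHB), E2 (DLAT), E3 (DLD) and the E3-binding protein (PDHX). Kinases of the PDK family phosphorylate E1α and switch the complex off, and phosphatases remove the phosphate and switch it on again. Citrate synthase then joins acetyl-CoA to oxaloacetate, and the cycle returns oxaloacetate through isocitrate, 2-oxoglutarate, succinyl-CoA, succinate, fumarate and malate. In liver the same intermediates also leave the mitochondrion for glucose, amino acid and fatty acid synthesis, and cytosolic forms of several of the enzymes work on that side.

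The libraries held 11326372 to 14601457 counts. Expression is given in CPM, counts scaled to a common library size after adjustment by edgeR's TMM factors. A log2 difference or log2 fold change is HFD+Allantoin-H over HFD, given with its standard error (SE), and adjusted p-values are from edgeR unless another tool is named. The hepatocyte markers Alb, Ttr, Apoa1, Tat, Cps1 and Hnf4a summed to 83160 to 84020 CPM in HFD and 66970 to 94880 CPM in HFD+Allantoin-H, with Apoa1 and Ttr called lower and Cps1 called higher. Of the 5 skeletal muscle markers, Ckm, Myh4 and Tnnt3 were at 0 in every library, Mylpf had 4 to 12 counts, and Acta1 had 46 counts in HFD replicate 2 and at most 1 elsewhere. The pancreatic acinar markers summed to at most 2.34 CPM. The summed Kupffer cell markers lay at 88.4 to 207 CPM in HFD and 249 to 282 CPM in HFD+Allantoin-H (3 of 5 called higher), and the stellate cell markers at 122 to 183 and 304 to 337 CPM (4 of 5 called higher). The endothelial markers summed to 49.99 to 93.3 and 77.5 to 130.2 CPM, the blood markers to 209 to 797 and 471 to 544.5 CPM, and the cholangiocyte markers to 8.89 to 48.3 and 3.10 to 4.25 CPM, with Sox9 called lower. The adipocyte markers summed to 71.3 to 510.1 CPM in HFD and 38.5 to 92.1 CPM in HFD+Allantoin-H. HFD replicate 2 carried 520 counts of Adipoq and 498 of Plin1, which had at most 1 count in any other library. In bulk liver, fewer cells of a type and less RNA per cell cannot be told apart, and the part of these marker differences in the results below was not tested.

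Of the 33 genes, 31 passed the filter on low counts and were tested, and 8 of them rose in HFD+Allantoin-H livers at an adjusted p under 0.05 (edgeR quasi-likelihood test, Benjamini-Hochberg over 12795 genes). They were Pdpr, Pdk1, Aco1, Pdha1, Dlst, Sucla2, Pdk2 and Dld. This is 25.8% of the tested members, where 11.3% of all tested genes were called higher. No member was called lower, where 13.0% of all tested genes were. DESeq2 and limma-voom also called 0 members lower. The median log2 fold change of the 31 genes was 0.40, beside -0.03 for all tested genes, and 24 of the 31 (77.4%) had a positive value, as 48.2% of all tested genes had. In 16 of the 31, 51.6%, every HFD+Allantoin-H library lay above every HFD library, as it did in 22.4% of all tested genes.

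**Figure D1:**
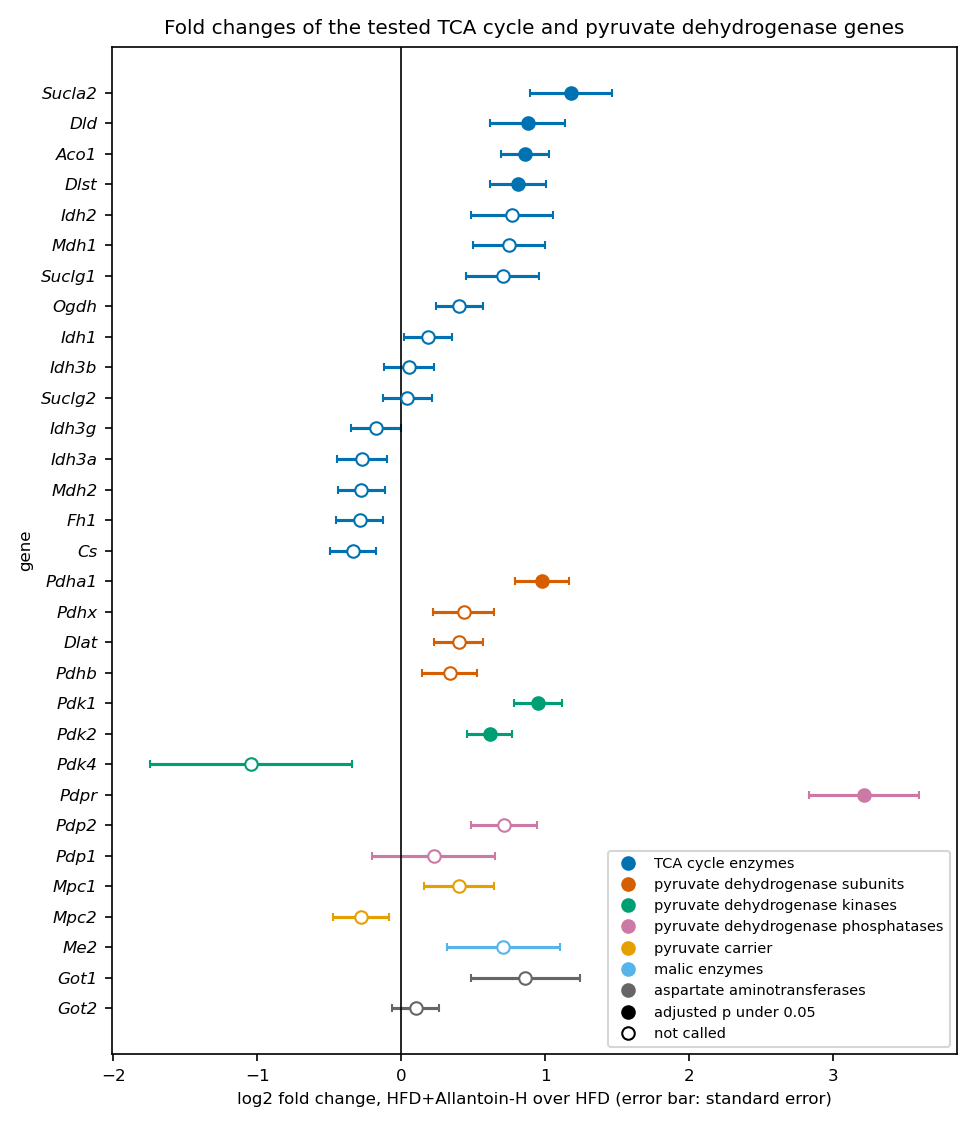
Log2 fold change of each tested gene, HFD+Allantoin-H over HFD, with its standard error, ordered by role and coloured by role as in the legend; filled points have an adjusted p under 0.05. The 8 filled points all lie to the right of 0, Pdpr stands farthest out at 3.21, and Pdk4 lies farthest to the left at -1.04 with the longest error bar.

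The largest change among the members was that of Pdpr (ENSMUSG00000033624, chromosome 8, 111094630 to 111137074, GRCm38). Its product is the regulatory subunit of pyruvate dehydrogenase phosphatase, which lowers the sensitivity of the catalytic subunit to magnesium. Pdpr had 10, 26 and 16 counts in HFD replicates 1 to 3 and 171, 362 and 187 counts in HFD+Allantoin-H replicates 4 to 6. In normalized values these were 1.09, 2.57 and 1.34 CPM against 12.5, 21.4 and 12.6 CPM, so the groups were widely apart. The fold change was 9.28, a log2 difference of 3.21 (SE 0.38, adjusted p = 0.00263, edgeR). An antisense transcript, 9430091E24Rik, shares 169 exonic bases with it and had 9, 12 and 2 counts in HFD and 25, 47 and 30 counts in HFD+Allantoin-H. The sources used here do not state whether counting used the strand.

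The catalytic phosphatase subunits were low or moderate. Pdp2, a catalytic subunit, lay at 26.2, 28.5 and 17.6 CPM in HFD and 45.7, 41.8 and 30.9 CPM in HFD+Allantoin-H. Those groups did not overlap, but the log2 difference of 0.71 (SE 0.23, adjusted p = 0.0504, edgeR) missed the threshold. Pdp1, the other catalytic subunit, stayed between 0.92 and 1.36 CPM in all 6 libraries, with a log2 difference of 0.23 (SE 0.43, adjusted p = 0.733). On a scale of CPM per kilobase of the longest annotated transcript, Pdp2 was at 4.23 in HFD and 6.94 in HFD+Allantoin-H, and Pdpr went from 0.337 to 3.14. The Pdp1 share of Pdp1 and Pdp2 per kilobase was 5.34%, 4.90% and 6.63% in HFD and 3.36%, 4.22% and 4.52% in HFD+Allantoin-H, without overlap, though it rests on 10 to 23 counts of Pdp1 in a library.

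Among the kinases that act against these phosphatases, Pdk1 and Pdk2 rose. Pdk1 (ENSMUSG00000006494, chromosome 2, 71873224 to 71903858) lay at 36.2, 36.9 and 47.6 CPM in HFD and at 77.6, 74.8 and 80.8 CPM in HFD+Allantoin-H. The treated libraries were tightly grouped and all above the HFD libraries, with a log2 difference of 0.95 (SE 0.17, adjusted p = 0.00618, edgeR). Pdk2 (chromosome 11, 95026258 to 95041354), the kinase with the highest level per kilobase of the family in these livers, went from 62.6, 67.2 and 59.5 CPM to 91.9, 109 and 88.55 CPM, a log2 difference of 0.61 (SE 0.16, adjusted p = 0.0239).

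Pdk4, the kinase known to be induced by fasting and by PPARα, behaved differently from library to library. It lay at 3.06, 32.6 and 10.9 CPM in HFD and at 7.04, 3.90 and 11.7 CPM in HFD+Allantoin-H, so that HFD held both the lowest and the highest library. The log2 fold change was -1.04 (SE 0.70, adjusted p = 0.300, edgeR). Its highest library was HFD replicate 2, the one with adipocyte transcripts, and without that library the log2 fold change was 0.10 (adjusted p = 0.923). With no filter on low counts the same gene was called lower, at -1.01 (adjusted p = 0.00151). Pdk3 had 0, 5 and 6 counts in HFD and 5, 10 and 18 counts in HFD+Allantoin-H and was not tested.

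Per kilobase, the Pdk2 share of the 4 kinases was 70.0% ± 7.15 in HFD and 70.9% ± 4.27 in HFD+Allantoin-H (SD, n = 3 each). Pdk1 made up 19.5%, 15.3% and 23.5% in the HFD libraries and 25.8%, 22.4% and 26.4% in the HFD+Allantoin-H libraries, which overlap. The sum of the 4 kinases over the sum of Pdp1 and Pdp2 was 9.33 ± 2.28 in HFD and 8.578 ± 1.696 in HFD+Allantoin-H (SD, n = 3 each), a difference of -0.756 (exact permutation test, two-sided, p = 0.6). The libraries of both groups ran over much the same range, 7.34 to 11.8 and 6.99 to 10.4.

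**Figure D2:**
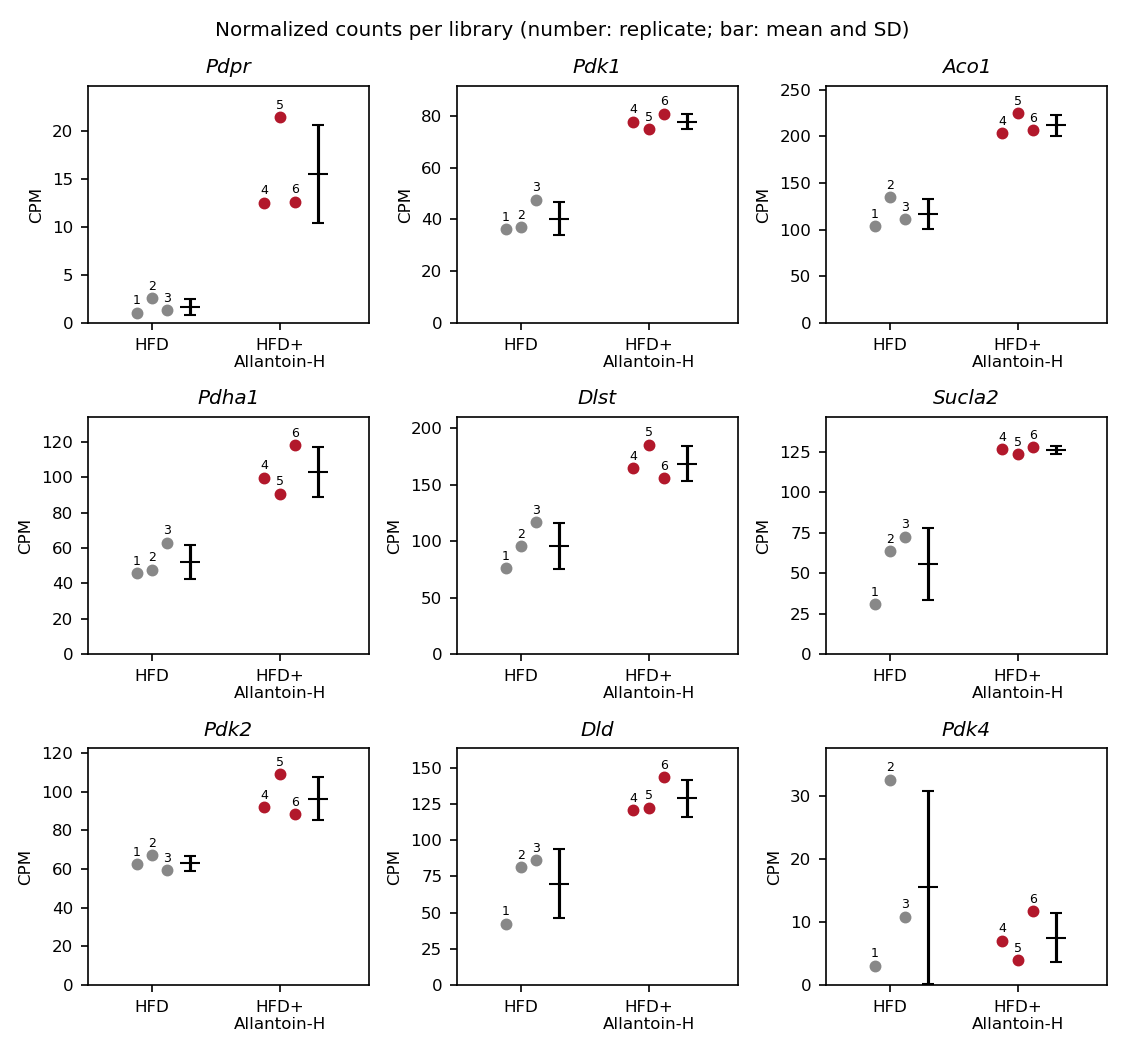
CPM in each library for the 8 genes that rose and for Pdk4, with the replicate number above each point and the mean and SD as a bar beside it; each panel has its own axis from 0. In the 8 genes that rose, all HFD+Allantoin-H points lie above all HFD points, whereas the Pdk4 points of the groups are interleaved and HFD replicate 2 is the highest at 32.6 CPM.

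In the pyruvate dehydrogenase complex itself, all 4 genes particular to it had positive fold changes and 1 passed the test. Pdha1 (ENSMUSG00000031299, chromosome X, 160122209 to 160138413), which encodes E1α, the subunit that the kinases phosphorylate, lay at 45.7, 47.8 and 63.1 CPM in HFD and 99.9, 90.9 and 118 CPM in HFD+Allantoin-H. The groups were apart by a fold of 1.97, a log2 difference of 0.98 (SE 0.19, adjusted p = 0.00858, edgeR). Pdha1 shares 603 exonic bases with Map3k15 on the opposite strand, which had at most 28 counts, and adding the counts of that gene gave a log2 difference of 0.99.

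Its partner Pdhb (E1β) lay at 53.4, 63.7 and 81.9 CPM in HFD and 77.0, 83.0 and 91.3 CPM in HFD+Allantoin-H, and HFD replicate 3 reached into the range of the treated livers. The log2 fold changes were 0.34 for Pdhb, 0.40 for Dlat, the E2 acetyltransferase, and 0.43 for Pdhx, the E3-binding protein, with adjusted p of 0.224, 0.114 and 0.160. The ratio of Pdha1 to Pdhb per kilobase was 0.715, 0.626 and 0.644 in HFD and 1.08, 0.914 and 1.08 in HFD+Allantoin-H. The ratio was thus higher in 3 of 3 treated libraries than in any HFD library (exact permutation test, two-sided, p = 0.1, the smallest that 3 against 3 libraries can give).

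The E3 subunit Dld (chromosome 12, 31331277 to 31351453) is the dihydrolipoamide dehydrogenase shared by the pyruvate, 2-oxoglutarate and branched-chain keto acid dehydrogenase complexes. It rose from 42.4, 81.5 and 86.4 CPM to 121, 123 and 144 CPM, a log2 difference of 0.88 (SE 0.26, adjusted p = 0.0385, edgeR). HFD replicate 1 was far below the other HFD libraries, and without it the value was 0.62. Set against Dlat per kilobase, Dld stood at 3.79 ± 0.971 in HFD and 5.395 ± 0.407 in HFD+Allantoin-H (SD, n = 3 each), without overlap. The difference of 1.61 became 1.05 without HFD replicate 1. Pdhx to Dlat stayed at 0.878 ± 0.180 and 0.902 ± 0.0505.

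The pyruvate carrier showed no call. Mpc1 lay at 41.3, 42.3 and 68.5 CPM in HFD and 53.3, 66.8 and 80.4 CPM in HFD+Allantoin-H, with a log2 difference of 0.40 (SE 0.24, adjusted p = 0.256, edgeR). Mpc2, the other subunit, was at 182.6 ± 37.2 and 150.2 ± 16.4 CPM (SD, n = 3 each), and its log2 difference was -0.28 (adjusted p = 0.316). The value of Mpc1 is uncertain. The processed pseudogene Mpc1-ps shares 261 identical bases with it, and 4930506C21Rik on the opposite strand shares 480 exonic bases, with at most 13 counts in a library. The pseudogene entry held 308, 674 and 1001 counts in HFD and 1468, 1877 and 2075 counts in HFD+Allantoin-H, which was more than the 378, 428 and 819 and the 727, 1129 and 1192 counts of Mpc1 in 5 of the 6 libraries. The Mpc1-ps entry was itself called higher, with a log2 difference of 0.96 (adjusted p = 0.0465, edgeR). Adding the counts of Mpc1 and Mpc1-ps gave a log2 difference of 0.74 (adjusted p = 0.0668, edgeR).

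At the entry of the cycle, citrate synthase (Cs) was at 104, 117 and 103 CPM in HFD and 86.9, 75.8 and 94.2 CPM in HFD+Allantoin-H. All treated libraries were below all HFD libraries, but the log2 difference of -0.34 (SE 0.16, adjusted p = 0.151, edgeR) did not pass the test. Aco1 (ENSMUSG00000028405, chromosome 4, 40143081 to 40198338), the cytosolic aconitase that without its iron-sulfur cluster becomes iron regulatory protein 1, rose from 104, 135 and 112 CPM to 204, 225 and 207 CPM, a log2 difference of 0.86 (SE 0.16, adjusted p = 0.00844).

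The isocitrate dehydrogenases did not move as one. The NAD-dependent enzyme of the cycle is built from IDH3A, IDH3B and IDH3G, whose genes had log2 differences of -0.27, 0.05 and -0.17 with adjusted p of 0.277, 0.849 and 0.499. Idh2, the NADP-dependent mitochondrial form, lay at 31.2, 59.5 and 73.3 CPM in HFD and 84.3, 89.3 and 106 CPM in HFD+Allantoin-H. Its groups did not overlap, and its log2 fold change of 0.77 (SE 0.28, adjusted p = 0.0776, edgeR) missed the threshold. Idh1, the cytosolic NADP-dependent form, was at 311 ± 27.2 and 354 ± 41.0 CPM (SD, n = 3 each), with a log2 difference of 0.19 (adjusted p = 0.440).

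Within each library, the 3 Idh3 genes summed per kilobase were 4.84, 3.17 and 2.44 times Idh2 in HFD and 1.93, 1.86 and 1.64 times Idh2 in HFD+Allantoin-H. The Idh1 share of Idh1 and Idh2 went from 82.0% ± 4.965 to 74.7% ± 0.271 (SD, n = 3 each). For both quantities the groups did not overlap (exact permutation p = 0.1 each). Without HFD replicate 1 the difference of the Idh3 to Idh2 ratio went from -1.67 to -0.996, and that of the Idh1 share from -7.32 to -4.62 percentage points.

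The 2-oxoglutarate dehydrogenase complex has OGDH as E1, DLST as E2 and DLD as E3. Dlst (ENSMUSG00000004789, chromosome 12, 85110833 to 85134845), the succinyltransferase, rose from 75.9, 95.5 and 117 CPM to 165, 185 and 155.5 CPM, a log2 difference of 0.81 (SE 0.19, adjusted p = 0.0176, edgeR). Ogdh lay at 102, 116 and 118 CPM in HFD and at 139, 171 and 134 CPM in HFD+Allantoin-H, apart but not called at a log2 difference of 0.40 (adjusted p = 0.105). The ratio of Ogdh to Dlst per kilobase was 1.05, 0.944 and 0.789 in HFD and 0.658, 0.720 and 0.672 in HFD+Allantoin-H (exact permutation p = 0.1). The difference of -0.244 became -0.548 with merged exon length in place of the longest transcript.

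Succinyl-CoA synthetase pairs the α subunit SUCLG1 with either the ADP-specific β subunit SUCLA2 or the GDP-specific β subunit SUCLG2. Sucla2 (ENSMUSG00000022110, chromosome 14, 73525319 to 73596142) rose from 30.8, 63.8 and 72.5 CPM to 127, 124 and 128 CPM, a log2 difference of 1.18 (SE 0.28, adjusted p = 0.0187, edgeR). The 3 treated values were almost equal, and HFD replicate 1 was well below the other HFD libraries. Suclg2 lay at 216, 209 and 250.4 CPM in HFD and 214, 213 and 269 CPM in HFD+Allantoin-H, with fully interleaved values and a log2 difference of 0.04 (adjusted p = 0.880). The pseudogene Gm15163 is a near copy of Suclg2, and adding its counts, at most 184 in a library, gave a log2 difference of 0.08. Suclg1 had a log2 difference of 0.70 (adjusted p = 0.0726), with 78.8, 163 and 146 CPM in HFD against 214, 219 and 199 CPM.

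The ADP-specific share of the β subunit transcripts was therefore 17.7%, 31.6% and 30.4% in the HFD libraries and 47.3%, 46.7% and 41.9% in the HFD+Allantoin-H libraries. The means differed by 18.7 percentage points without overlap (exact permutation test, two-sided, p = 0.1, adjusted p = 0.262 over 21 shares and ratios). Without HFD replicate 1 the difference was 14.3 points.

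Further round the cycle, Fh1, the fumarase gene, lay at 231, 276 and 224 CPM in HFD and 179.5, 215 and 204.5 CPM in HFD+Allantoin-H. Mdh2, the mitochondrial malate dehydrogenase, was at 146, 185 and 179 CPM and at 138, 131 and 152.5 CPM. For Fh1 all treated libraries were below all HFD libraries, whereas the groups overlapped for Mdh2. The log2 differences of Fh1 and Mdh2, -0.29 and -0.28, did not pass the test (adjusted p = 0.224 and 0.243, edgeR). Mdh1, the cytosolic malate dehydrogenase and the member with the highest level per kilobase in both groups, went from 242, 469 and 417 CPM to 593, 573 and 729.7 CPM. The groups were apart, with a log2 difference of 0.75 (SE 0.25, adjusted p = 0.0585, edgeR), above the threshold of 0.05. Leaving out 1 library at a time gave adjusted p from 0.0432, without HFD replicate 2, to 0.171, without HFD+Allantoin-H replicate 6, and only the first of these 6 fits passed. Over all 17 alternatives, Mdh1 was called in 7, among them DESeq2 (adjusted p = 0.0174) and limma-voom (adjusted p = 0.0449), and not in 10.

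The cytosolic share of malate dehydrogenase transcripts per kilobase was 55.6%, 65.7% and 63.8% in HFD and 76.4%, 76.8% and 78.4% in HFD+Allantoin-H (exact permutation test, two-sided, p = 0.1). Of the 21 shares and ratios compared, 8 had groups that did not overlap, and all 8 had an adjusted p of 0.262, so none passed the adjustment. Among single genes, the groups did not overlap in 18 of 31 tested members and in 44.3% of all tested genes.

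**Figure D3:**
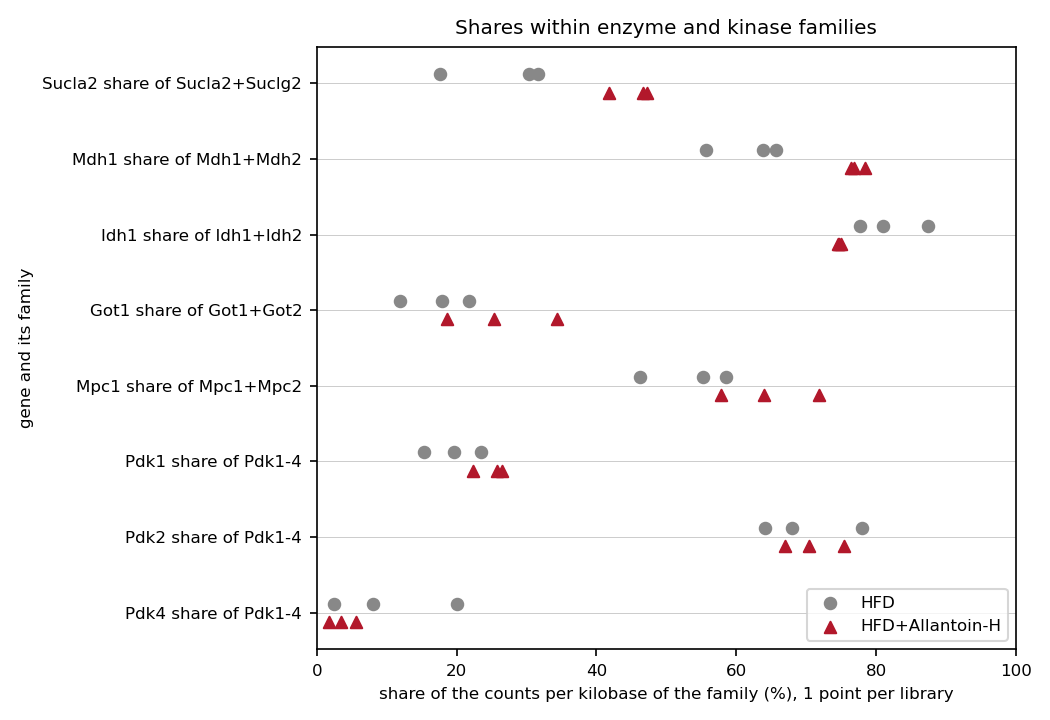
Share of 1 gene in the counts per kilobase of its enzyme or kinase family, in percent, with 1 point per library, grey circles for HFD and red triangles for HFD+Allantoin-H. The groups are apart for Sucla2 (26.6% and 45.3% on average), Mdh1 (61.7% and 77.2%) and Idh1 (82.0% and 74.7%), and overlap for the other 5 shares drawn.

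Of the aspartate aminotransferases, which with the malate dehydrogenases carry reducing equivalents between cytosol and mitochondrion, cytosolic Got1 lay at 37.5, 75.6 and 93.1 CPM in HFD and 113, 184 and 78.3 CPM in HFD+Allantoin-H. HFD+Allantoin-H replicate 6 fell within the HFD range, and the log2 difference of 0.86 (SE 0.38, adjusted p = 0.125, edgeR) became 0.48 without HFD+Allantoin-H replicate 5. Mitochondrial Got2 was close to level at 393 ± 46.9 and 420.5 ± 12.02 CPM (SD, n = 3 each), with a log2 difference of 0.10 (adjusted p = 0.688). Me2, the mitochondrial NAD-dependent malic enzyme, had 14, 14 and 12 counts in HFD and 30, 32 and 34 counts in HFD+Allantoin-H, a log2 difference of 0.71 (adjusted p = 0.216). Me3 had at most 1 count in a library and was not tested.

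Per kilobase of the longest transcript, the order of the members was led in both groups by Mdh1, Got2, Idh1 and Mdh2. Mdh1 was at 177 CPM per kilobase in HFD and 298 in HFD+Allantoin-H, Got2 at 155 and 166, Idh1 at 135 and 154, and Mdh2 at 106 and 87.5. Cs, which was not called, went from place 11 of 33 to place 21, with 36.0 and 28.5 CPM per kilobase. Sucla2 went from place 21 to place 11, with 25.0 and 56.6. In HFD, places 11 to 21 lay close together, from 36.0 to 25.0 CPM per kilobase, and the SD of Sucla2 there was 9.87 (n = 3). At the low end, Pdp1, Pdk3 and Me3 had group means of at most 0.3425 CPM per kilobase.

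**Figure D4:**
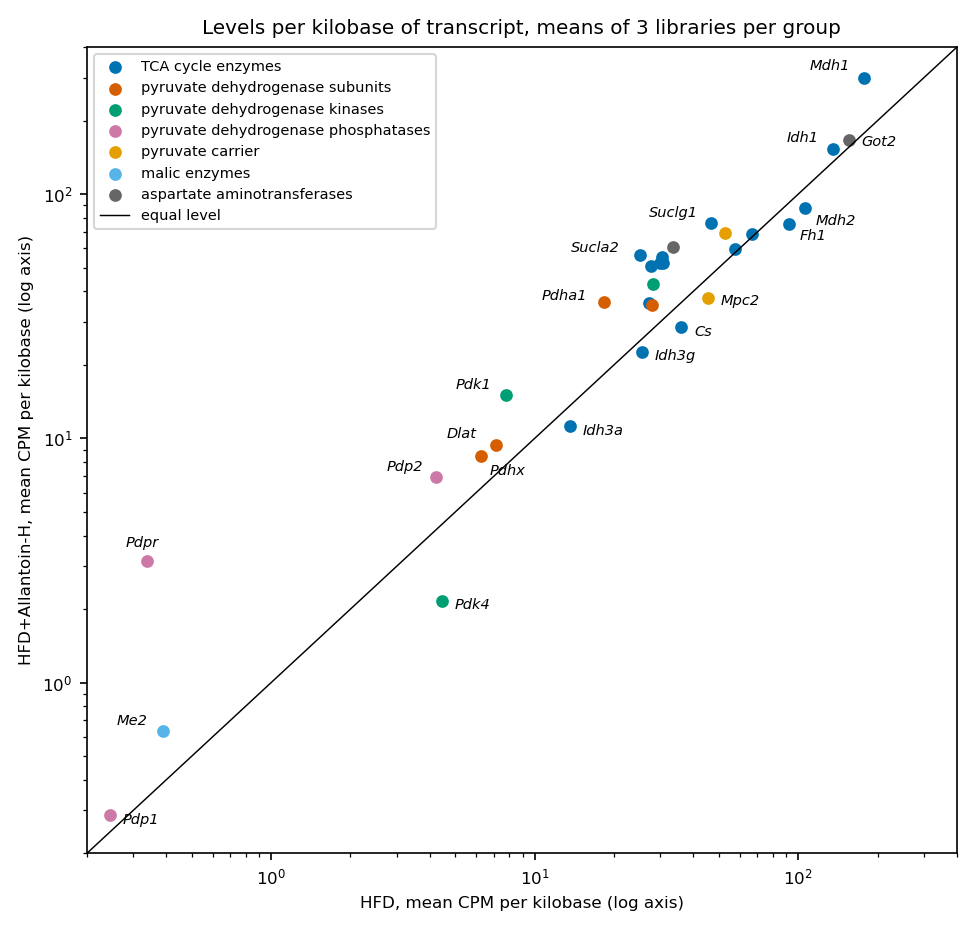
Mean CPM per kilobase of transcript for the 31 tested genes in HFD (x axis) and HFD+Allantoin-H (y axis), both log axes, coloured by role, with the line of equal level and with the genes away from the dense middle named. Pdpr lies farthest above the line (0.337 and 3.14), Sucla2 (25.0 and 56.6) and Pdha1 (18.3 and 36.2) lie above it, and Cs, Fh1, Mdh2, Idh3a, Idh3g, Mpc2 and Pdk4 lie below it.

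Neighbouring steps of carbon metabolism were read from a further 34 genes, of which 33 were tested, 9 rose and 1 fell, where 11.3% of all tested genes were called higher and 13.0% lower. Bckdha, E1α of the branched-chain keto acid dehydrogenase, which also uses DLD, rose from 11.2, 17.5 and 14.1 CPM to 48.3, 53.0 and 46.5 CPM, a log2 difference of 1.78 (adjusted p = 0.00204, edgeR). Slc25a13, the aspartate-glutamate carrier of the malate-aspartate shuttle, rose with a log2 difference of 1.15 (adjusted p = 0.00403), and Slc25a10, the dicarboxylate carrier, with 0.60 (adjusted p = 0.0197). Sdha, the flavoprotein subunit of succinate dehydrogenase, rose by 1.22 on the log2 scale (adjusted p = 0.0199), Acly, which splits exported citrate, by 0.96 (adjusted p = 0.0120), Pcx, the pyruvate carboxylase, by 0.57 (adjusted p = 0.0345) and Sirt3, the main mitochondrial deacetylase, by 0.87 (adjusted p = 0.0162). Some other subunit genes of succinate dehydrogenase and of the branched-chain complex were not called, and these included negative log2 differences in both complexes. Mrps36, whose product is also known as a component that links E3 to the 2-oxoglutarate dehydrogenase complex, fell from 8.73, 11.9 and 11.7 CPM to 5.28, 4.55 and 5.33 CPM, a log2 difference of -1.10 (adjusted p = 0.0118).

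Of 14 regulators known for Pdk4 or for oxidative metabolism, 4 rose at an adjusted p under 0.05 (edgeR) and 10 were not called, beside 11.3% of all tested genes called higher. Ppargc1a, the coactivator PGC-1α, went from 3.49, 3.36 and 5.18 CPM to 6.82, 9.52 and 7.83 CPM, with group means of 4.01 and 8.06 CPM (adjusted p = 0.0343). Gabpa, a subunit of the ETS factor NRF2/GABP, had a log2 difference of 0.70 (adjusted p = 0.0231), Nr3c1, the glucocorticoid receptor, 0.60 (adjusted p = 0.0258), and Ppara 2.02 (adjusted p = 0.00389).

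The promoters of the 4 members with the smallest p-values are shown so that their upstream sequence can be compared letter by letter. They come from RefSeq (GRCm38.p6), start 250 bases before the RefSeq start site and stop before the earlier of the RefSeq and GENCODE start sites, so that they differ in length. They lie at chr8:111094495-111094629 (plus strand, Pdpr), chr2:71872974-71873223 (plus strand, Pdk1), chr4:40143015-40143080 (plus strand, Aco1) and chrX:160138431-160138680 (minus strand, Pdha1). Capitals mark matches to any of the motifs named after them, on either strand.
Pdpr: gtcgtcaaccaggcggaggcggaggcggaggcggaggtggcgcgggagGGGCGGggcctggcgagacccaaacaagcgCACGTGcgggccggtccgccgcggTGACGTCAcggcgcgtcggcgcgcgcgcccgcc
Pdk1: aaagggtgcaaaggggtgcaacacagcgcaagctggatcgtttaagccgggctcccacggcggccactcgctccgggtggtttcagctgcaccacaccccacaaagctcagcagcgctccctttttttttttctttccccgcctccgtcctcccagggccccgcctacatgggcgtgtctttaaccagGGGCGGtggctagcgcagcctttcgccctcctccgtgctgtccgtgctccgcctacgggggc
Aco1: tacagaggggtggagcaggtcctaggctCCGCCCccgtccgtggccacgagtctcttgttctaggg
Pdha1: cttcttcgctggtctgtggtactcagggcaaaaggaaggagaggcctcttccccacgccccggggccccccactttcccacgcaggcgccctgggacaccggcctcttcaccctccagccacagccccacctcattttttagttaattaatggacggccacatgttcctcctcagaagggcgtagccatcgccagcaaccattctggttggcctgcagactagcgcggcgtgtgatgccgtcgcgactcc

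The motifs searched on both strands were the direct repeat bound by PPARα with RXR (AGGTCA, any base, AGGTCA), TCAAGGTCA (estrogen-related receptors), GTAAACA (FOXO), the NRF1 palindrome, CACGTG (the E-box), TGACGTCA (the cAMP response element), GGGCGG (the GC box) and CCAAT. In the 135 bases shown, Pdpr holds the E-box CACGTG, the full cAMP response element TGACGTCA and a GC box, and these matches do not overlap. The E-box was found in the 250 upstream bases of 6.02% and TGACGTCA in those of 1.55% of 32851 RefSeq promoters. The Pdk1 and Aco1 stretches hold 1 GC box each, and the Pdha1 stretch holds none of the letters searched. The GC box was in the 250 upstream bases of 32.7% of all promoters. Over those 250 bases, more than the Aco1 and Pdpr stretches shown, Aco1 held 3 GC boxes and Pdpr 2.

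A promoter entry was found for 30 of the 33 members, 28 of them tested. The direct repeat, TCAAGGTCA, GTAAACA and the NRF1 palindrome were in none of these 28 promoters, and they were in 0.0335%, 0.387%, 3.17% and 0.782% of all promoters. CCAAT was in 2 of the 8 genes that rose and in 14 of the 20 that were not called, beside 33.8% of all promoters. The GC box was in 5 of the 8 and 13 of the 20 (32.7% of all promoters). CACGTG was in 2 of the 8 and 1 of the 20 (6.02%), and TGACGTCA in 1 of the 8 and 2 of the 20 (1.55%). These are exact letter matches in a short window and say nothing about a factor's binding.

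The 8 calls rest on different footing. Pdpr, Pdk1 and Pdha1 were called in all 17 alternative analyses, and Aco1 in all but the one without HFD+Allantoin-H replicate 5 (adjusted p = 0.05 after rounding, not under the threshold). Dld, Sucla2 and Pdk2 were not called without any one HFD+Allantoin-H library, nor was Dlst without replicate 4 or 5, although their log2 fold changes then ran from 0.52 to 1.20. The count of members called higher was 4, 3 and 5 without HFD+Allantoin-H replicates 4, 5 and 6, and 8, 11 and 11 without HFD replicates 1, 2 and 3. In the same fits without HFD+Allantoin-H replicates, all tested genes called higher numbered 596, 460 and 702, beside 1446 with all libraries. Without the HFD replicates, the counts of all tested genes called higher were 1222, 1292 and 1773. HFD replicate 1 held 35.5% of its counts in mRNAs encoded by mitochondrial DNA, against 17.1% to 19.5% in the other HFD libraries and 6.68% to 11.1% in HFD+Allantoin-H. The 8 genes were called without HFD replicate 1 too, and also without HFD replicate 2 and after removal of the dependence on length and GC content.

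**Figure D5:**
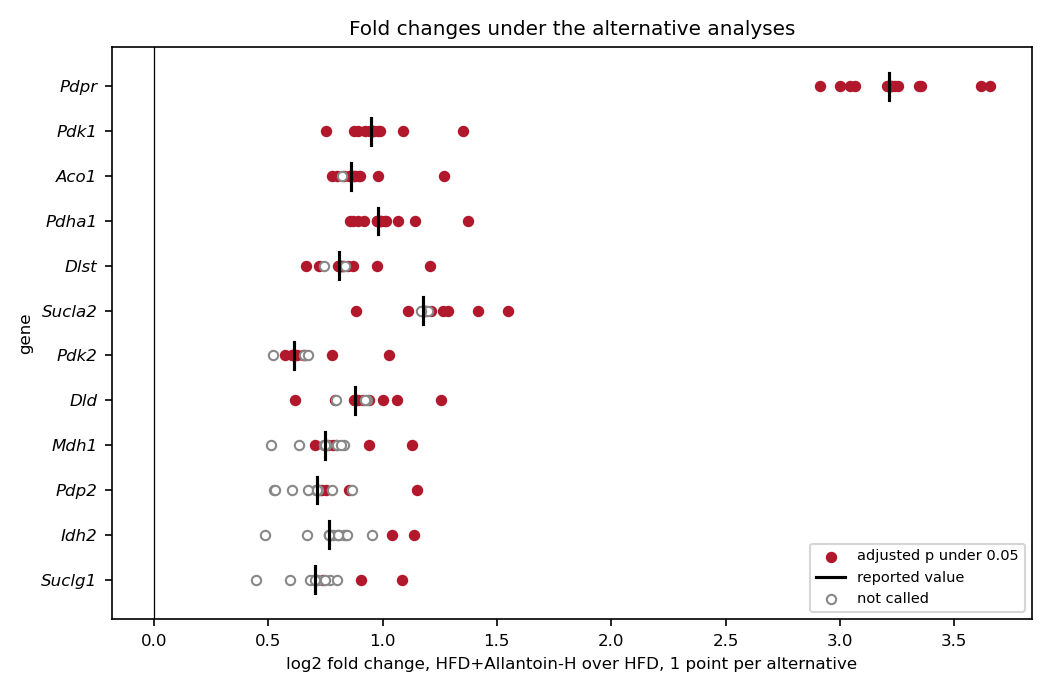
Log2 fold change, HFD+Allantoin-H over HFD, of the 8 called genes and of 4 genes close to the threshold, with 1 point per alternative analysis, filled red where the adjusted p was under 0.05, and a black bar at the reported value. All points are to the right of 0, the Pdpr points lie between 2.92 and 3.66, and the points of Mdh1, Pdp2, Idh2 and Suclg1 are partly open.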

How the data were processed

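The authors deposited raw counts per gene. Libraries were made with a SMARTer mRNA-Seq kit and sequenced on a HiSeq instrument, and the reads were filtered. Per the labels the build was GRCm38 (mm10), and the aligner and counter are not given in the sources used here. The table also holds 429 features without an Ensembl identifier (0.197% to 0.306% of a library's counts), which were left out, and no sample column was unused. Symbols, positions and transcript lengths came from GENCODE M21, in which 54409 of 54532 identifiers were found.

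All genes were fitted with edgeR 4.0.16 in R 4.3.3 (TMM, filterByExpr, quasi-likelihood test, group as the only term), and p-values were adjusted over 12795 genes. Standard errors came from the F statistic. Shares and ratios used counts divided by the longest transcript and a two-sided exact permutation test over the 6 libraries. Not all of these shares and ratios are reported here. BLAST 2.17.0 served to find transcripts of other genes matching a member at 95% identity or more for 200 bases or more. DESeq2 1.42.0, limma-voom (limma 3.58.1), other scalings and filters, omission of single libraries and removal of the length and GC trend (splines with 5 degrees of freedom) were alternatives. Summing copies was added after seeing the data. The members, lists and tests were chosen with earlier results of these data known. All members could be named, and of the neighbouring genes at most 8 called ones by smallest p.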

Additional observations from a re-analysis of the deposited data

How the results depend on the processing

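The 8 genes called higher were called, all 8, under 14 of the 17 alternatives, the exceptions being the fits without one HFD+Allantoin-H library. The count of 8 became 15 with library size only, 13 with no filter on low counts, 12 with DESeq2, 4 at an adjusted p under 0.01 and 2 at an absolute log2 fold change above 1, and ran from 3 to 11 when single libraries were left out. The count called lower was 0 except for 1, Pdk4, with no filter. Among all tested genes, 1446 were called higher and 1666 lower, 46.5% higher. With library size only these were 3162 and 674, 82.4% higher, and the median log2 fold change of all genes shifted by 0.41. The counts of all genes called higher and lower were 1822 and 2134 with no filter on low counts, and 1747 and 1966 with DESeq2. They were 443 and 573 at an adjusted p under 0.01, 722 and 974 at an absolute log2 fold change above 1, and 460 to 1773 and 564 to 2008 without single libraries. Of the neighbouring genes, 9 higher and 1 lower became 16 and 0 with library size only, 2 and 0 at an adjusted p under 0.01 and 4 higher at an absolute log2 fold change above 1. Without single libraries they ran from 2 to 8 higher and from 0 to 1 lower. The median log2 fold change of the members, 0.40, was 0.81 with library size only. With that scaling the signs of Cs (0.075), Idh3a (0.14), Idh3g (0.24), Fh1 (0.12), Mdh2 (0.12) and Mpc2 (0.12) turned positive. Suclg2 was at -0.12 with the length and GC trend removed and at -0.075 to 0.129 without single libraries, Idh3b at -0.079 to 0.157 and Pdk4 at -1.52 to 0.10. The cause of these changes was not tested. Without single libraries, the difference between groups, HFD+Allantoin-H minus HFD, ran from -1.484 to 1.06 percentage points for the Me2 share, -2.015 to 4.898 for the Pdk2 share and -0.002972 to 0.3352 for the Pdk3 share, from -1.75 to 0.4854 for kinases over catalytic phosphatases and from -0.0794 to 0.07714 for Pdhx over Dlat. With no division by length the Pdk2 share differed by -0.7301 points. No paired analysis was possible because the groups share no replicate number. Counts limit Pdk3 and Me3, which were not tested, and Me2 and Pdp1, with at most 34 counts in a library.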

Other observations

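The HFD libraries varied more than the HFD+Allantoin-H libraries in these genes, as in the transcriptome as a whole. On the log2 scale, 24 of the 31 tested members (77.4%) and 74.2% of all tested genes had a larger SD in HFD. HFD replicate 1 was the lowest of the 6 libraries for 19 of the 31 members (61.3%) and for 26.9% of all tested genes, while HFD replicates 2 and 3 were the lowest for 2 and 4 members. Among the genes with the lowest value in HFD replicate 1 were the called genes Pdpr, Pdk1, Aco1, Pdha1, Dlst, Dld and Sucla2. The called gene Pdk2 was lowest in HFD replicate 3. Mdh1, Idh2, Suclg1 and Got1, which were not called, were also lowest in HFD replicate 1.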
